A study of Mus musculus with 20 samples.

Results

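The genes described here are 8 transcription factors of the developing cerebral cortex: Neurod2, Neurod6, Tbr1, Fezf2, Bcl11a, Bcl11b, Eomes and Emx1. They were chosen by name as known markers of cortical neurons and their progenitors, and they are 8 of the 38414 genes listed over the 4 expression tables of the series. All libraries came from wild-type (WT) C57BL/6J mouse embryos cut as sections of OCT-embedded tissue, and their poly(A) RNA was sequenced. In MAPIT-seq an antibody recruits a fusion of protein A/G (pAG) with 2 base-editing deaminases, so that RNA near the antibody's target acquires edited bases: rAPOBEC1 changes C to U, read as C-to-T, and hADAR2 changes A to I, read as A-to-G. The target was G3BP1, an RNA-binding protein of stress granules, and rabbit IgG was the control antibody.

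The 20 libraries form 10 groups of 2. Libraries labelled E10.5 (E for embryonic day) carry the label of fixed or of fresh-frozen embryo, each with rabbit IgG, anti-G3BP1 and untreated groups. Brain at E12.5 and at E16.5 was each treated with IgG or with anti-G3BP1, without untreated libraries. Every IgG and anti-G3BP1 library was fixed in 0.2% formaldehyde and received the fusion rAPOBEC1-pAG-hADAR2 after a secondary antibody, guinea pig anti-rabbit. The untreated libraries had no fixation, no antibody and no fusion, although those of the fixed embryo also carry the treatment label Fixed. An IgG against untreated comparison therefore changes fixation, antibody and fusion at once, and the 3 cannot be told apart. The labels do not say whether the 2 libraries of a group came from separate embryos, so p-values measure the spread between these libraries, which may be technical.

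Excitatory neurons of the cortex arise from radial glia of the dorsal forebrain, which carry Emx1, partly through intermediate progenitors, which carry Eomes (TBR2). Newborn neurons then switch on Neurod2 and Neurod6, basic helix-loop-helix factors of neuronal differentiation. Tbr1 specifies layer 6 neurons, and Fezf2 acts upstream of Bcl11b (CTIP2) in the subcerebral projection neurons of layer 5. Bcl11a (CTIP1) and Bcl11b are zinc-finger partners of chromatin-remodelling complexes, and Bcl11b is also a gene of striatal neurons.

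In E16.5 brain and libraries labelled fresh-frozen, most editing sites of these genes lay in 3′ untranslated regions, as did most of all sites. The sequences of 6 edited positions are given here, taken from those with the most edited reads with anti-G3BP1 so as to show the 2 kinds of edit. Further Bcl11a positions with similar counts are described below without a sequence. Each is the 21-base transcript sequence, 5′ to 3′, with the edited base in capitals, from GENCODE M21 on GRCm38.
Bcl11b site 1, chr12:107914124-107914144, minus strand, A-to-G: aggagctggtAagagttctgt
Bcl11b site 2, chr12:107914123-107914143, minus strand, A-to-G: ggagctggtaAgagttctgtc
Bcl11b site 3, chr12:107910783-107910803, minus strand, A-to-G: tgtactggcaAggcggaatat
Bcl11a site 1, chr11:24168089-24168109, plus strand, A-to-G: atattttgttAttggcctttt
Bcl11a site 2, chr11:24168289-24168309, plus strand, C-to-T: tggctttttaCtgtatttgtt
Neurod2 site, chr11:98325589-98325609, minus strand, A-to-G: ggaggcagggAaccaggcacc
Bcl11b sites 1 and 2 are adjacent bases, 1269 and 1270 bases after the end of the coding sequence in a 3′ untranslated region of 5000 bases. Bcl11b site 3 lies 4610 bases after that end. Bcl11a sites 1 and 2 lie 2936 and 3136 bases after the Bcl11a coding end, and the Neurod2 site 1589 bases after the Neurod2 coding end.

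Libraries were first checked against their labels. The 6 libraries with the fresh-frozen E10.5 embryo label did not resemble the fixed E10.5 embryo: Hoxb9, a gene of the trunk, was at 0 to 0.445 TPM (a level scaled for transcript length and sequencing depth) there against 438 to 692 TPM, and Gria2, a neuronal glutamate receptor gene, at 248 to 420 TPM against 0.275 to 1.72 TPM. A summed list of 7 heart, liver and trunk genes was at 10.01 to 36.9 TPM in these 6 libraries and at 3399 to 4823 TPM in the fixed embryo. They are called the libraries labelled fresh-frozen below. Mean depth over the editing sites used ranged from 23.2 to 205.5 reads per site and library, and 17310 to 25508 genes reached 1 TPM. In all bulk libraries here, fewer cells of a type and less RNA per cell cannot be told apart.

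The 7 of these mRNAs read in the fixed embryo were lower there than in E16.5 brain in every library. Neurod2 was listed at 0 to 0.619 TPM in the 6 fixed-embryo libraries and at 4.76, 10.1, 13.6 and 14.6 TPM in the 4 libraries of E12.5 brain. In E16.5 brain it was at 366 and 397 TPM with IgG and at 375 and 339 TPM with anti-G3BP1, so no library of E12.5 came near those of E16.5. Neurod6 was at 1.81 and 3.16 TPM with IgG at E12.5, and at 2.03 TPM and listed at 0 with anti-G3BP1. At E16.5 Neurod6 was at 327 and 331 TPM with IgG and at 397 and 363 TPM with anti-G3BP1. Neurod6 was not listed in the fixed embryo, where 7 of the 8 genes were read.

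**Figure D1:**
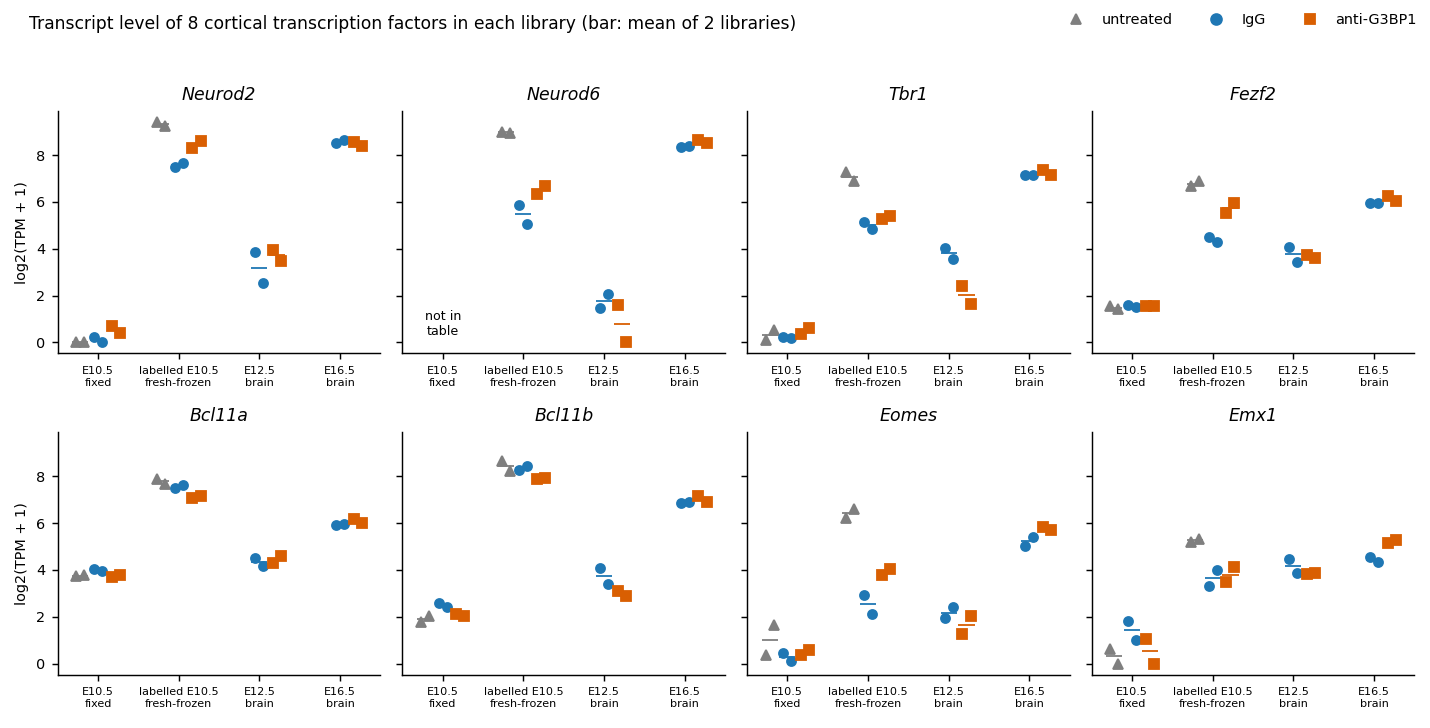
TPM on a log2(TPM + 1) axis for each of the 8 genes, with 1 point per library, by table and treatment; bars are means of 2 libraries. Neurod6 runs from 0 to 3.16 TPM in E12.5 brain and from 327 to 397 TPM in E16.5 brain, and the untreated libraries labelled fresh-frozen stand above the IgG libraries for all genes but Bcl11b.

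The factors of deep-layer neurons also rose from the fixed embryo to E12.5 and E16.5 brain, with smaller steps. The fixed embryo and the brains differ in tissue as well as stage, which cannot be told apart. Libraries labelled fresh-frozen, also labelled E10.5, had Bcl11b at 231 to 401 TPM and Fezf2 at 18.8 to 117 TPM. Tbr1 was at 15.6 and 10.8 TPM with IgG but 4.25 and 2.13 TPM with anti-G3BP1 at E12.5, against 141 to 162 TPM in the 4 libraries of E16.5. Fezf2 was at 9.82 to 15.9 TPM at E12.5 and 60.9 to 76.0 TPM at E16.5. Bcl11b was at 6.43 to 16.03 TPM at E12.5 and 115 to 142 TPM at E16.5. None of these 3 genes overlapped between the stages. In the fixed embryo Tbr1 stayed at or under 0.545 TPM and Fezf2 between 1.67 and 2.03 TPM, while Bcl11b was at 2.41 to 5.04 TPM.

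Bcl11a was the only one of the 7 genes read there above 6 TPM in the fixed embryo, at 11.96 to 15.3 TPM. It was at 16.8 to 23.4 TPM at E12.5 and 59.1 to 70.8 TPM at E16.5. Eomes, the intermediate progenitor gene, was at 1.40 to 4.34 TPM at E12.5 and at 31.7, 41.7, 55.4 and 51.6 TPM at E16.5. Emx1 was the gene with overlapping stages: 21.3, 13.7, 13.4 and 13.5 TPM at E12.5, and 22.2 and 19.0 TPM with IgG but 34.3 and 37.8 TPM with anti-G3BP1 at E16.5. The highest E12.5 library of Emx1 thus lay above the lowest E16.5 library.

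The order of the 8 genes by TPM, which is a level per length, also differed between tables. In each of the 4 libraries of E16.5 brain, Neurod2 and Neurod6 took the first 2 ranks, followed by Tbr1, Bcl11b, Fezf2, Bcl11a, Eomes and Emx1. Neighbours in that order overlapped in their library ranges for Neurod2 and Neurod6, Tbr1 and Bcl11b, Fezf2 and Bcl11a, and Eomes and Emx1, but not for Neurod6 and Tbr1, Bcl11b and Fezf2, or Bcl11a and Eomes. In each library of E12.5 brain Bcl11a ranked first, Emx1 ranked 2 or 3, and Neurod6 ranked 7 or 8. In each library of the fixed embryo Bcl11a ranked first and Bcl11b second. Neurod2 and Bcl11b ranked between 1 and 3 in the libraries labelled fresh-frozen, where Emx1 and Eomes took ranks 7 and 8.

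Levels in E16.5 and E12.5 brain were compared with limma on log2(TPM + 1), after rescaling over the 34555 shared genes, with the antibody as a covariate. All 8 genes rose at an adjusted p under 0.05, the threshold for a call throughout, against 32.3% of the 20162 genes tested that were called higher and 17.7% called lower. The median log2 change was 3.59 over the 8 genes and 0.17 over all genes tested. Neurod6 rose by 7.18 (SE 0.36, n = 4 libraries per stage, limma adjusted p = 2.01e-06), the largest change of any gene tested, and its mean TPM was 202-fold higher. Neurod2 rose by 5.07 (SE 0.28, limma adjusted p = 2.56e-06), or 34.3-fold in mean TPM. Tbr1 rose by 4.29, Bcl11b by 3.59 and Eomes by 3.59, with mean TPM 17.9-fold, 12.53-fold and 15.5-fold higher.

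Fezf2 rose by 2.34 (limma adjusted p = 7.01e-06) and Bcl11a by 1.62 (limma adjusted p = 1.18e-05), which are 5.34-fold and 3.15-fold in mean TPM. Emx1 changed least, by 0.80 (SE 0.24, limma adjusted p = 0.0228), and its call was lost without the filter on low genes (limma adjusted p = 0.0903) and against the median change (0.63, limma adjusted p = 0.0593). It was also lost without E12.5 IgG library 2, either E12.5 anti-G3BP1 library or either E16.5 anti-G3BP1 library, with limma adjusted p of 0.0501, 0.0636, 0.0617, 0.0735 and 0.0771. The stages overlapped for Emx1 and not for the other 7 genes, against 31.2% of all genes that did not overlap and were higher at E16.5. Each stage is 1 table, so stage and table cannot be told apart.

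Marker genes of brain regions also differed between the stages. Tcf7l2, a gene of thalamic neurons, was at 190 to 288 TPM at E12.5 and at 8.27 to 9.75 TPM at E16.5 (log2 change -4.64, limma adjusted p = 2.76e-07). The thalamus list of 5 genes summed to 375 to 475 TPM at E12.5 and 40.3 to 51.2 TPM at E16.5, and none of its 5 genes was at 0 in a library of E12.5. The ventral telencephalon list of 11 genes summed to 141 to 210 TPM at E12.5 and 835 to 952 TPM at E16.5, with all 11 called higher. Of 9 midbrain and hindbrain genes 5 were called higher and 4 lower at E16.5, and their sum was 92.7 to 196 TPM at E12.5 and 79.3 to 100.004 TPM at E16.5. The similar sums hide differences between genes: En2 of that list was at 16.4 to 69.6 TPM at E12.5 and 0 to 0.0992 TPM at E16.5. The part of these markers in the changes of the 8 genes was not tested.

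Among related genes, the list of 27 cortical projection neuron genes had 20 called higher and 4 called lower at E16.5. Lmo3, a LIM-only cofactor gene, rose by 2.16, Ldb2, which encodes a LIM-domain-binding cofactor, by 3.75, and Mef2c, a neuronal MADS-box factor gene, by 3.35 on the log2 scale. Of 12 dorsal telencephalic progenitor genes, 2 were called higher and 8 lower. Neurog1, a proneural factor gene, fell by 4.33, Hes5, a Notch target, fell by 2.84, and Gadd45g, a stress-response and differentiation gene, fell by 2.06. Of 27 genes of the BAF and NuRD complexes, which BCL11A and BCL11B contact, 5 were called higher and 11 lower. The NuRD helicase gene Chd4 fell by 1.14, while the BAF genes Smarca2 and Ss18l1 rose by 2.08 and 1.54.

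With IgG, 6 of the 8 mRNAs were lower than in untreated libraries among those labelled fresh-frozen, while Bcl11a and Bcl11b did not pass the test. Eomes was at 73.8 and 97.3 TPM untreated, 6.68 and 3.38 TPM with IgG, and 12.8 and 15.4 TPM with anti-G3BP1. Neurod6 was at 510 and 498 TPM untreated, 58.0 and 32.5 TPM with IgG, and 80.9 and 101 TPM with anti-G3BP1. Fezf2 was at 100 and 117 TPM untreated, 21.4 and 18.8 TPM with IgG, and 45.1 and 61.1 TPM with anti-G3BP1. In these 3 genes both untreated libraries stood above both IgG and both anti-G3BP1 libraries, and the anti-G3BP1 libraries stood between.

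Tbr1 was at 154 and 117 TPM untreated, 34.5 and 27.9 TPM with IgG, and 37.3 and 41.8 TPM with anti-G3BP1. Neurod2 was at 682 and 597 TPM untreated, 179 and 199 TPM with IgG, and 313 and 392 TPM with anti-G3BP1. Emx1 was at 36.0 and 39.4 TPM untreated, 8.91 and 15.1 TPM with IgG, and 10.04 and 16.3 TPM with anti-G3BP1. The untreated libraries were again the highest, and the ranges of Emx1 with IgG and with anti-G3BP1 overlapped. Bcl11b was at 401 and 302 TPM untreated, 304 and 343 TPM with IgG, and 231 and 244 TPM with anti-G3BP1. Bcl11a was at 237 and 202 TPM untreated, 180 and 194 TPM with IgG, and 135 and 143 TPM with anti-G3BP1. For these 2 genes the anti-G3BP1 libraries were the lowest, and for Bcl11b the untreated and IgG libraries overlapped.

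By limma on log2(TPM + 1), 6 of the 8 genes were called lower with IgG than untreated, against 6.34% of the 23545 genes tested called lower and 5.36% called higher. The median change was -1.91 over the 8 genes and 0.02 over all genes. Eomes fell by 3.89 (SE 0.31, n = 2 libraries per group, limma adjusted p = 0.00485), or 17-fold in mean TPM, and Neurod6 fell by 3.5 (limma adjusted p = 0.00428), or 11.1-fold. Fezf2 fell by 2.37 (limma adjusted p = 0.00455), Tbr1 fell by 2.08 (limma adjusted p = 0.00603) and Neurod2 fell by 1.75 (limma adjusted p = 0.00566). Emx1 fell by 1.62 (limma adjusted p = 0.0274), and this call was lost without untreated library 1, untreated library 2 or IgG library 1, with limma adjusted p of 0.0933, 0.115 and 0.0781. Bcl11a changed by -0.23 (95% interval -0.51 to 0.06, limma adjusted p = 0.256) and Bcl11b by -0.11 (95% interval -0.49 to 0.27, limma adjusted p = 0.705). All genes but Bcl11b, 7 of 8, were lower with IgG without overlap, against 27.2% of all genes.

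**Figure D2:**
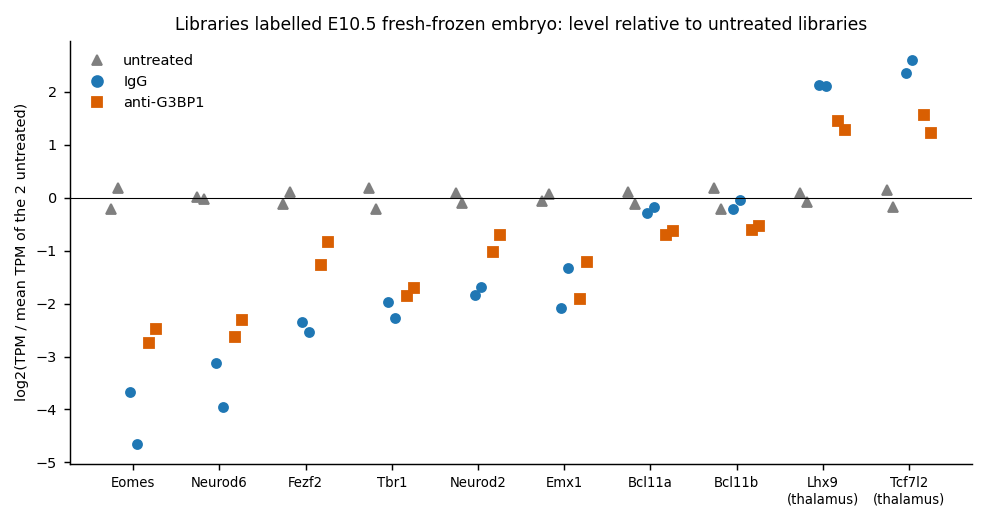
TPM in the 6 libraries labelled fresh-frozen as log2 of the ratio to the mean of the 2 untreated libraries, 1 point per library, for the 8 genes and 2 thalamic genes. These 2 are the thalamus-list genes called higher with IgG, and Prox1, called lower, is not shown. Eomes and Neurod6 lie lowest with IgG, Bcl11a and Bcl11b lie near 0, and Lhx9 and Tcf7l2 lie above it.

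Genes of the region lists also changed, in both directions. Tcf7l2 was at 57.2 and 46.0 TPM untreated, 265 and 314 TPM with IgG, and 153 and 120 TPM with anti-G3BP1, and rose by 2.47 from untreated to IgG. Lhx9, another gene of thalamic neurons, rose by 2.10. Of 6 midbrain and hindbrain genes tested, 1 was called higher and 1 lower with IgG: En2, a gene of the midbrain and anterior hindbrain, rose by 2.39 and Pax5, a paired-box gene of that region, fell by 1.30. That list summed to 127 to 128 TPM untreated, 198 to 248 TPM with IgG and 231 to 294 TPM with anti-G3BP1. The thalamus list summed to 150 to 172 TPM untreated, 489 to 537 TPM with IgG and 266 to 311 TPM with anti-G3BP1. Only 2 of its 5 genes were called higher with IgG, and 1, Prox1, was called lower. The median log2 change of the thalamus list was -0.15, beside 0.02 over all genes. The ventral telencephalon list summed to 1136 to 1250, 734 to 743 and 991 to 998 TPM in the same order, with 8 of 11 genes called lower with IgG. The part of these markers in the changes of the 8 genes was not tested.

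Related genes changed in the same comparison. Of the 27 projection neuron genes, 1 was called higher and 9 lower with IgG. Nr4a2, a nuclear receptor gene, fell by 2.72, and Bhlhe22, a basic helix-loop-helix factor gene, fell by 1.98. Of the 12 dorsal progenitor genes, 2 were called higher and 6 lower, among them Neurog2, which fell by 1.0. Dmrt3 of that list had a mean of 5.92 TPM untreated and was listed at 0 in both IgG libraries. Of the 27 BAF and NuRD genes none was called higher and 3 lower: Arid1a fell by 1.04, Hdac2 fell by 0.72 and Smarcc1 fell by 0.53.

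Anti-G3BP1 against IgG changed the level of none of the 8 genes past the test in any table. In the libraries labelled fresh-frozen, 0 of 8 were called, against 0.0297% of 23545 genes called higher and 0.00425% called lower, with 2773 genes at an unadjusted p under 0.05. Fezf2 had a log2 change of 1.34 (SE 0.18, 95% interval 0.91 to 1.78, limma adjusted p = 0.067), Eomes of 1.38 (limma adjusted p = 0.180), Neurod6 of 1.04 and Neurod2 of 0.89 (limma adjusted p = 0.216 and 0.107). Bcl11a and Bcl11b had changes of -0.42 and -0.44 (limma adjusted p = 0.256 and 0.353). Without overlap, 5 of the 8 were higher, against 21.5% of all genes, and 2 were lower, against 21.2%. These comparisons share their IgG libraries with those against untreated libraries. Nr4a2 was the 1 projection neuron gene called higher with anti-G3BP1, by 1.49 (limma adjusted p = 0.0478), and none was called lower.

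In E16.5 brain 0 of the 8 were called, against 0.0108% of 18564 genes called higher and 1841 at an unadjusted p under 0.05. Emx1 was the gene with the largest difference of the 8, at 0.78 (SE 0.12, 95% interval 0.51 to 1.06, limma adjusted p = 0.284), and Eomes followed at 0.54 (limma adjusted p = 0.341). Tbr1 and Neurod2 overlapped between the antibodies and the other 6 were higher with anti-G3BP1 without overlap, against 17.8% of all genes, and none was lower, against 23.6%. In E12.5 brain 0 of 18010 genes were called, with 2452 at an unadjusted p under 0.05. None of the 8 was higher without overlap, against 14.7% of all genes. Tbr1 there had a change of -1.79 (95% interval -2.87 to -0.70, limma adjusted p = 0.259), and it was 1 of 3 genes, with Bcl11b and Emx1, that were lower with anti-G3BP1 without overlap, against 33.7% of all genes. In the fixed embryo 4 of the 8, Bcl11a, Bcl11b, Fezf2 and Emx1, passed the filter on low levels, and 0 of 19144 genes were called, with 1153 at an unadjusted p under 0.05. Of these 4, 2 were lower with anti-G3BP1 without overlap, against 36.1% of all genes, and none was higher, against 9.74%. Between IgG and untreated fixed libraries 0 of 19144 were called, with 2658 at an unadjusted p under 0.05. Here 3 of the 4 were higher with IgG without overlap, against 33.8% of all genes, and none was lower, against 10.4%.

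Editing was read from the tables of edited positions, keeping sites with at least 10 reads in each library of a table. Of the sites listed under the 8 genes, 463 of 480 were kept in E16.5 brain, 240 of 307 in the libraries labelled fresh-frozen, 21 of 133 in E12.5 brain and 3 of 6 in the fixed embryo. In the last 2 tables all kept sites belonged to Bcl11a. Bcl11b had the most kept sites, 146 at E16.5 and 99 in the libraries labelled fresh-frozen, followed by Bcl11a with 104 and 59 and Neurod2 with 79 and 51. Tbr1 had 56 and 20, Neurod6 46 and 4, and Fezf2 17 and 7, while Eomes and Emx1 had 9 and 6 at E16.5 and none in the libraries labelled fresh-frozen. The 3′ untranslated region held 81.6% of the kept sites of the 8 genes at E16.5, against 67.6% of all kept sites, and 79.2% against 68.9% in the libraries labelled fresh-frozen. These last 2 sets had 46 positions in common, which is 46 of 240 and 46 of 463.

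Pooled over their kept sites, the edited share, the percentage of reads that carry the edited base, was close to that of all sites. At E16.5 it was 0.251% and 0.271% with IgG against 0.404% and 0.335% with anti-G3BP1 over the sites of the 8 genes, and 0.216%, 0.227%, 0.374% and 0.346% over all sites. In the libraries labelled fresh-frozen the 8 genes were at 0.289% and 0.288% untreated, 0.579% and 0.791% with IgG against 1.26% and 1.24% with anti-G3BP1. All sites there were at 0.380% and 0.356%, 0.636% and 0.661%, and 1.22% and 1.25%. In both sets the untreated libraries were the lowest and the anti-G3BP1 libraries the highest, without overlap, so the untreated and IgG shares give the background of each gene's value.

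Over the 8 genes, A-to-G and C-to-T sites differed in how far anti-G3BP1 stood above IgG. Among libraries labelled fresh-frozen the 88 A-to-G sites of the 8 genes went from 0.735% and 1.1% with IgG to 2.47% and 2.14% with anti-G3BP1, and the 152 C-to-T sites from 0.463% and 0.554% to 0.504% and 0.661%. The IgG and anti-G3BP1 ranges of the C-to-T sites overlapped. Few positions held many of the A-to-G reads there. Of 525 edited reads of the 2 kinds with anti-G3BP1, Bcl11b sites 1 and 2 and Bcl11a site 1 held 114, 35 and 34. With IgG these A-to-G positions held 36, 3 and 29 of 236. At E16.5 the 144 A-to-G sites went from 0.323% and 0.377% to 0.545% and 0.597%, and the 319 C-to-T sites from 0.221% and 0.228% to 0.345% and 0.228%. C-to-T sites that follow an A in the transcript, the base rAPOBEC1 is known to favour before its C, were at 0.469% with IgG and 0.872% with anti-G3BP1 in the libraries labelled fresh-frozen, and at 0.325% and 0.432% at E16.5. After a C they were at 0.354% and 0.769%, and at 0.115% and 0.133%. After a G they were at 0.496% and 0.376%, and at 0.203% and 0.147%, and after a T at 0.593% and 0.460%, and at 0.170% and 0.254%. In the libraries labelled fresh-frozen the antibodies differed more in ratio after a C than after an A, and at E16.5 the reverse held. The values after a C in the libraries labelled fresh-frozen rest on 7 edited reads with IgG and 25 with anti-G3BP1, against 29 and 66 after an A. No test was made of these pooled shares. Over all genes tested at E16.5, calls were also fewer with C-to-T sites alone than with A-to-G sites alone. Shares of each kind over all sites are not given here, so the difference between kinds cannot be called particular to the 8 genes.

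Per gene, the edited against the unedited reads of all kept sites entered a quasi-binomial logistic model, and changes are log2 odds ratios. Bcl11b, 1 of 6 genes tested in the libraries labelled fresh-frozen, rose with anti-G3BP1 over IgG, against 1.43% of 7836 genes called higher. Its edited reads numbered 50 of 8646 and 70 of 8813 with IgG, 114 of 6638 and 189 of 9955 with anti-G3BP1, and 39 of 12642 and 25 of 8791 untreated. The shares were 0.308% and 0.284% untreated, 0.578% and 0.794% for IgG, and 1.72% and 1.90% for anti-G3BP1, so the 3 groups did not overlap. Bcl11b rose by 1.42 (SE 0.24, 95% interval 0.93 to 1.91, n = 2 libraries per group, quasi-binomial adjusted p = 0.00292).

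The median over all genes in that comparison was 0.91, and against that median change Bcl11b was not called (quasi-binomial adjusted p = 0.768), nor was any of the 7836 genes. The call was also lost without IgG library 1 (1.21, quasi-binomial adjusted p = 0.0731), without anti-G3BP1 library 1 (1.48, adjusted p = 0.559) and without anti-G3BP1 library 2 (1.33, adjusted p = 0.565), and with C-to-T sites alone (0.28, adjusted p = 0.822) or limma on the empirical logit (1.42, adjusted p = 0.338). With A-to-G sites alone it was 1.93 (quasi-binomial adjusted p = 0.00447).

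Of the other 5 genes tested in these libraries, Tbr1 had 4 of 878 and 2 of 613 reads edited with IgG, 9 of 979 and 24 of 1531 with anti-G3BP1, and 4 of 2909 and 4 of 2546 untreated. Its change was 1.63 (95% interval -0.14 to 3.39, quasi-binomial adjusted p = 0.402). Bcl11a was at 0.522% and 1.11% with IgG against 1.57% and 1.09% with anti-G3BP1, which overlap, with a change of 0.64 (quasi-binomial adjusted p = 0.389). Neurod2 was at 0.731% and 0.216% with IgG against 0.387% and 0.399% with anti-G3BP1, a change of -0.26 with an interval of -1.38 to 0.86. Neurod6 had 0 of 62 and 0 of 50 edited reads with IgG, which allow shares of up to 4.84% and 6.00%, and 2 of 154 and 4 of 241 with anti-G3BP1, so a difference was not detectable at this depth. Fezf2 had 2 of 132 and 0 of 101 with IgG and 2 of 193 and 6 of 441 with anti-G3BP1. The shares of 3 of the 6 genes were higher with anti-G3BP1 without overlap, against 47.1% of all genes tested, and none was lower without overlap, against 4.48%. Neurod6 is 1 of these 3 through its zeros with IgG alone, so the count rests on Bcl11b and Tbr1. These limits cover counting error only, as the libraries carry no molecular identifiers.

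**Figure D3:**
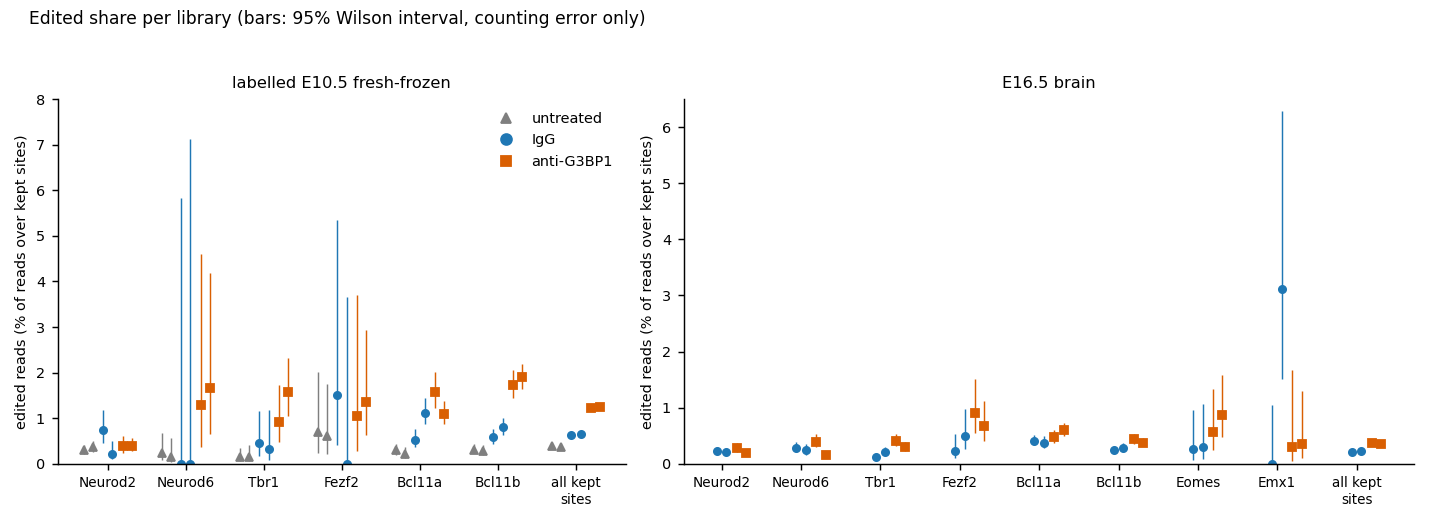
Edited reads as a percentage of all reads over a gene's kept sites, 1 point per library with its 95% Wilson interval, for the genes with kept sites and for all kept sites. Bcl11b in the libraries labelled fresh-frozen runs from 0.308% and 0.284% untreated to 1.72% and 1.90% with anti-G3BP1, and the genes with few reads (Neurod6 and Fezf2 there, Eomes and Emx1 at E16.5) have wide intervals.

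In E16.5 brain 1 of 8 genes, Tbr1, rose with anti-G3BP1 over IgG, against 6.65% of 11741 genes called higher. Tbr1 had 22 of 18069 and 30 of 13978 reads edited with IgG and 52 of 12661 and 55 of 18425 with anti-G3BP1. These are 0.122% and 0.215% against 0.411% and 0.299%, which do not overlap. The log2 odds rose by 1.08 (SE 0.33, 95% interval 0.44 to 1.72, n = 2 libraries per group, quasi-binomial adjusted p = 0.0222). The median over all genes was 0.65, and against it 0.0256% of genes were called higher and Tbr1 was not (quasi-binomial adjusted p = 0.825). The call was lost without any 1 of the 4 libraries: the change was 0.68 without IgG library 1, 1.49 without IgG library 2, 0.87 without anti-G3BP1 library 1 and 1.34 without anti-G3BP1 library 2, with adjusted p of 0.718, 0.0698, 0.358 and 0.122. It was also lost with A-to-G sites alone (2.45, adjusted p = 0.0531), C-to-T sites alone (0.71, adjusted p = 0.631) and limma on the empirical logit (1.1, adjusted p = 0.436).

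Bcl11b at E16.5 was at 0.25% and 0.282% with IgG against 0.434% and 0.373% with anti-G3BP1, again without overlap, and its change of 0.60 (95% interval 0.17 to 1.03) did not pass the test (quasi-binomial adjusted p = 0.0779). Bcl11a had a change of 0.47 (adjusted p = 0.268), Fezf2 of 1.14 (adjusted p = 0.407) and Eomes of 1.28 (adjusted p = 0.588) by the quasi-binomial test, all without overlap between the groups. Neurod2 and Neurod6, the most abundant of the 8 mRNAs in that table, had changes of 0.07 (95% interval -0.43 to 0.57) and -0.05 (95% interval -0.71 to 0.60), with quasi-binomial adjusted p of 0.919 and 0.960. Emx1 had 0 of 366 and 7 of 225 edited reads with IgG and 1 of 336 and 2 of 557 with anti-G3BP1, so IgG library 2 set its change of -1.71 (quasi-binomial adjusted p = 0.512). It became 2.53 without that library. Groups did not overlap and were higher with anti-G3BP1 for 5 of the 8 genes, against 42.1% of all genes, and lower for none, against 5.4%. The median change was 0.53 over the 8 genes. Bcl11b and Tbr1 passed the test in 1 table each, and the difference between the tables was not tested.

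**Figure D4:**
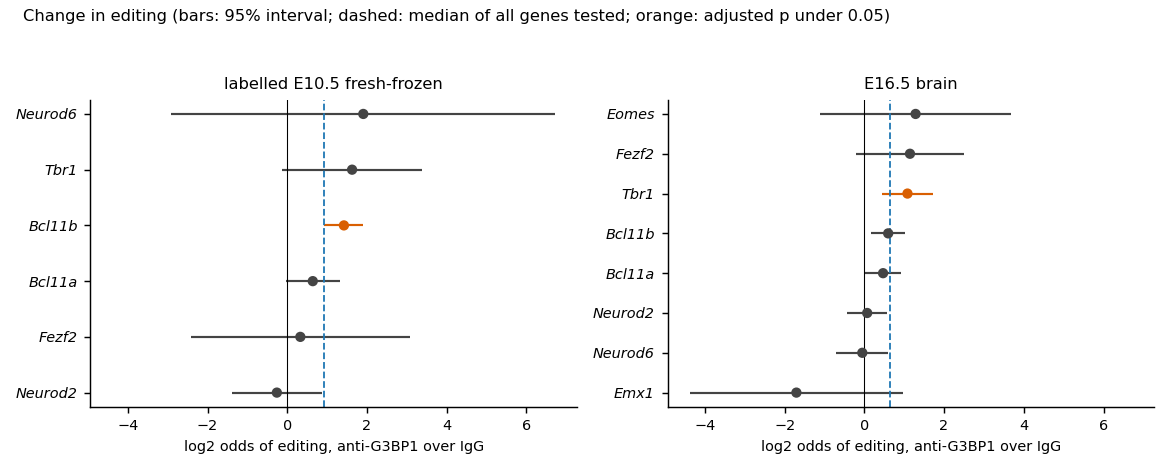
Log2 odds ratio of editing, anti-G3BP1 over IgG, for each gene tested, with its 95% interval; the dashed line is the median of all genes tested (0.91 in the libraries labelled fresh-frozen, 0.65 at E16.5). Only Bcl11b on the left and Tbr1 on the right passed the test, and the intervals of Neurod2 on the left and of Neurod2 and Neurod6 on the right end at 0.86, 0.57 and 0.60.

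Single positions showed how unevenly editing was spread. Bcl11b site 1, the first of the adjacent positions whose sequences are given above, had 16 of 122 (13.1%, 95% Wilson interval 8.24% to 20.2%) and 20 of 125 reads (16%) edited with IgG in the libraries labelled fresh-frozen. With anti-G3BP1 it had 40 of 129 (31.0%, interval 23.7% to 39.4%) and 74 of 171 reads (43.3%, interval 36.1% to 50.8%). Both untreated libraries had no edited read there, 0 of 369 and 0 of 246. At E16.5 the same A was edited in 12 of 71 (16.9%) and 8 of 71 reads (11.3%) with IgG, and in 16 of 56 (28.6%) and 23 of 102 (22.5%) with anti-G3BP1. Sites were singled out by their edited reads with anti-G3BP1, so these differences are descriptions with no test.

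Bcl11b site 1 held 114 of the 303 edited reads of Bcl11b with anti-G3BP1 in the libraries labelled fresh-frozen, which is 37.6%, and 39 of 203, or 19.2%, at E16.5. Without it Bcl11b still rose in the libraries labelled fresh-frozen, by 1.25 (quasi-binomial adjusted p = 0.0184). Bcl11b site 2, the next A of the transcript, had 1 of 120 and 2 of 126 reads edited with IgG, and 8 of 129 (6.2%) and 27 of 170 (15.9%) with anti-G3BP1. Bcl11b site 3 had 0 of 108 and 0 of 108 with IgG, and 3 of 55 and 11 of 161 with anti-G3BP1. At E16.5 Bcl11b site 3 had 3 of 346 and 2 of 225 with IgG, and 5 of 200 and 10 of 379 with anti-G3BP1. Each of these 3 positions was edited with anti-G3BP1 in both tables.

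**Figure D5:**
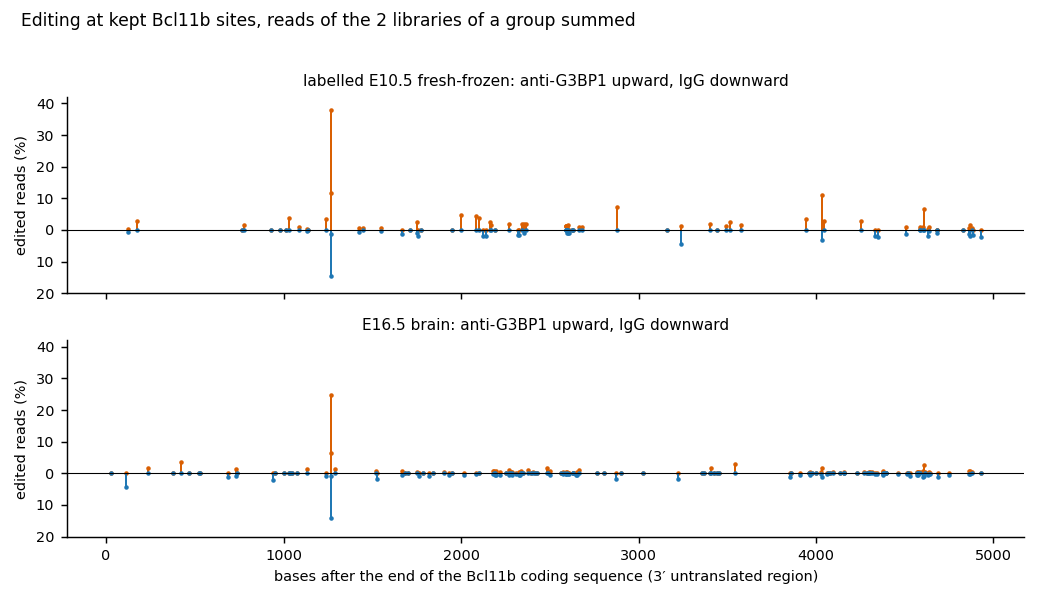
Edited reads in percent at each kept Bcl11b site in the 3′ untranslated region, against its distance in bases from the end of the coding sequence, with anti-G3BP1 upward and IgG downward and the reads of 2 libraries summed. The peak lies at 1269 bases in both tables, with IgG as well as with anti-G3BP1, and most other sites are near 0.

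Bcl11a site 1 was edited with IgG as well as with anti-G3BP1. In the libraries labelled fresh-frozen it had 11 of 168 (6.55%) and 18 of 170 (10.6%) with IgG, 23 of 151 (15.2%) and 11 of 174 (6.32%) with anti-G3BP1, and 0 of 161 and 1 of 142 untreated. At E16.5 it had 21 of 282 and 12 of 215 with IgG and 15 of 223 and 22 of 277 with anti-G3BP1. The groups overlapped in both tables. Of the Bcl11a A-to-G positions without a sequence above, chr11:24167246 had 1 of 164 and 1 of 196 with IgG in the libraries labelled fresh-frozen. With anti-G3BP1 it had 5 of 99 and 11 of 225, without overlap. The antibodies overlapped there at chr11:24167741. At E16.5 the C-to-T position chr11:24172969 had 0 of 407 and 0 of 350 with IgG and 8 of 337 and 2 of 454 with anti-G3BP1. Bcl11a site 2, a C-to-T position after an A, had 1 of 204 and 0 of 178 with IgG and 5 of 164 and 6 of 237 with anti-G3BP1 at E16.5. The Neurod2 site had 15 of 680 and 15 of 722 with IgG and 5 of 457 and 16 of 688 with anti-G3BP1, which overlap, and it was the most edited site of Neurod2 at E16.5. In Tbr1 no single site held more than 10 of the 107 edited reads with anti-G3BP1 at E16.5, and without the site that had the most edited reads over the 4 libraries Tbr1 rose by 1.11 (quasi-binomial adjusted p = 0.0251).

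IgG against untreated libraries labelled fresh-frozen gave no call among the 6 genes tested or among all 7836 genes, with 540 at an unadjusted p under 0.05. Bcl11a had a change of 1.65 and Bcl11b of 1.2 (quasi-binomial adjusted p = 0.366 for both). Untreated shares lay between 0.138% for Tbr1 and 0.691% for Fezf2. The shares of 3 of the 6 genes were higher with IgG without overlap, against 31.5% of all genes, and 1, Neurod6, counted as lower, against 6.2%. Neurod6 counted so through its 0 of 62 and 0 of 50 reads with IgG, which allow shares above the untreated 0.233% and 0.155%, so no direction can be read for it, and its fitted change was 1.06 with an interval of -4.19 to 6.30. In E12.5 brain Bcl11a was the 1 gene tested, with 0 of 378 and 2 of 760 reads edited with IgG and 2 of 490 and 5 of 678 with anti-G3BP1. The anti-G3BP1 shares were higher without overlap, against 27.6% of all genes that were higher and 3.41% that were lower in this way, but the 0 of 378 reads allow a share of up to 0.794%, above the lower anti-G3BP1 share of 0.408%. Its change of 1.55 did not pass the test (quasi-binomial adjusted p = 0.826), as none of 5568 genes did, with 171 at an unadjusted p under 0.05, and it was -0.02 without the most edited site. In the fixed embryo Bcl11a had 2 edited reads in 1 library of each group and 0 in the other, and its change of 0.51 did not pass the test (quasi-binomial adjusted p = 0.958), against 0.0179% of 5594 genes called higher. Between IgG and untreated fixed libraries the change was -1.31 (quasi-binomial adjusted p = 0.959), and 0 of 5594 genes were called, with 103 at an unadjusted p under 0.05.

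Related genes were called in the same comparisons. Among libraries labelled fresh-frozen 1 of 21 projection neuron genes tested rose with anti-G3BP1, Nfib, a nuclear factor I gene, by 1.53. Of 25 BAF and NuRD genes 1 rose, Rbbp4, which encodes a histone chaperone of NuRD, by 1.91. At E16.5 4 of 25 projection neuron genes rose, among them the POU factor genes Pou3f3 and Pou3f2 by 0.84 and 1.48 and Reln, the gene of reelin, by 1.04. Of 26 BAF and NuRD genes 5 rose, among them Rbbp4 by 1.34, Arid1a by 0.91 and Smarca2 by 0.87. Of the 9 dorsal progenitor genes tested none passed. The ventral list had 2 of 10 called, Gad2 and Gad1, enzymes of GABA synthesis, by 1.44 and 1.0. No gene of these lists was called lower, and the medians of the projection neuron list and of the BAF and NuRD list were 0.61 and 0.79 at E16.5, beside 0.65 over all genes.

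Across libraries the 8 genes fell into looser and tighter pairs. Over the 14 libraries in which all 8 were read, the Pearson correlation of log2(TPM + 1) was highest for Neurod6 and Tbr1 (0.970), Bcl11a and Bcl11b (0.961) and Eomes and Fezf2 (0.953), and lowest for Bcl11a and Emx1 (0.193). Among genes listed in the tables used and with a mean of 5 TPM or more over their libraries, Efnb2 and Lasp1 were among the 3 nearest patterns to Neurod6 over those 14 libraries (r = 0.987 and 0.985). Over all 20 libraries the nearest were Ndrg4, Hbb-bs and Lrrc75b for Neurod2 (0.988 for each), Cplx1, Slc30a10 and Sv2b for Tbr1 (0.987, 0.985 and 0.983), and Nfix, Neurod2 and Mllt11 for Fezf2 (0.988, 0.9752 and 0.974). For Bcl11b they were Map9, Dip2c and Grin2b (0.995, 0.994 and 0.994), and for Bcl11a Tenm1, Lingo2 and Pde4b (0.992, 0.991 and 0.991). For Eomes they were Papss1, Sp9 and Pygb (0.971, 0.957 and 0.952), while Gba2 and Gpm6b were among the 3 nearest to Emx1 (0.965 and 0.965). These points share 4 tables and 10 groups of libraries, so the correlations can follow differences between tables and between treatments, which was not tested.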

How the data were processed

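The authors deposited 4 editing tables, which hold per the file headers the count of covering reads and the count of edited reads per site and library, and 4 expression tables of TPM. The builds mm10 and GRCm38, the aligners BWA 0.7.17 and HISAT2 2.2.1, GATK 4.5.0.0, Picard 3.1.1, featureCounts 2.0.1 and Subread are named in the submitters' processing notes. What each tool did, and whether strand was used in counting, is not given in the sources used here. In 18 of 20 libraries sites with 1 edited read were rarer than sites with 2, so the deposited counts at low shares may not hold every edited read. Repeated lines (36, 104, 104 and 215) were removed.

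The editing test was a quasi-binomial logistic model in R 4.3.3 over sites with at least 10 reads and genes with at least 50 reads per library, adding 0.25 reads of each kind, with dispersion moderated by limma 3.58.1 and kept at 1 or more. Levels were tested with limma on log2(TPM + 1) for genes at 1 TPM or more in 2 libraries. Tests were two-sided, with Benjamini-Hochberg adjustment over all genes tested. Files were read with data.table (version 1.17.8), Python 3.11.15, pandas 2.3.3 and scipy 1.17.1. Regions and windows came from GENCODE M21, whose transcript bases were those of the listed sites at all 727 kept sites of the 8 genes. No GEO label pairs replicates. Named genes were the 8, up to 3 called genes with the smallest p per list and comparison, the 3 nearest patterns per gene, and 6 sites per table, those with the most edited anti-G3BP1 reads that both anti-G3BP1 libraries shared. Results of a few genes that the rule names are not reported here. The genes, lists and tests were chosen with earlier results of these data known. Both models were tested on simulated data. Of 18 alternatives 4 were added after seeing the data.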

Additional observations from a re-analysis of the deposited data

Results flagged for a closer look

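The direction of the TPM difference between treatments was opposite, without overlap, in these pairs of tables. None of the differences between tables was tested, and values are log2 changes. Of all genes with anti-G3BP1 over IgG, 36.1%, 21.2% and 33.7% were lower without overlap in the fixed, fresh-frozen-labelled and E12.5 libraries. In the libraries labelled fresh-frozen and E16.5 brain 21.5% and 17.8% were higher in this way. With IgG over untreated, 33.8% were higher in the fixed embryo and 27.2% lower in the libraries labelled fresh-frozen. The share of all genes with such opposite pairs is not given here. With anti-G3BP1 over IgG, Tbr1 was higher in the libraries labelled fresh-frozen (0.34) and lower in E12.5 brain (-1.79). Bcl11a was lower in the fixed embryo (-0.25) and in the libraries labelled fresh-frozen (-0.42) and higher in E16.5 brain (0.16). Bcl11b was lower in the fixed embryo (-0.43), in the libraries labelled fresh-frozen (-0.44) and in E12.5 brain (-0.76) and higher in E16.5 brain (0.15). Emx1 was lower in E12.5 brain (-0.33) and higher in E16.5 brain (0.78). With IgG over untreated, Bcl11a was higher in the fixed embryo (0.24) and lower in the libraries labelled fresh-frozen (-0.23), and Emx1 likewise (1.1 and -1.62). Emx1 was near the floor in the fixed embryo, at 2.50 and 1.02 TPM with IgG and at 0.547 and 0 TPM untreated. Of these values only the fall of Emx1 passed its own test.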

How the results depend on the processing

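The count of the 8 genes called was followed over the alternatives in 13 comparisons. It was within 1.5 times its reported value, or stayed at 0, in 150 of 165 alternatives. The other 15 all concern editing with anti-G3BP1 over IgG. Most comparisons had a reported count of 0, so many of the 150 are counts that stayed at 0. The 150 therefore do not measure how stable the calls are. In the libraries labelled fresh-frozen the count went from 1 to 0 with C-to-T sites alone, limma on the empirical logit and against the median change, and was 0 to 1 when single libraries were left out. At E16.5 it went from 1 to 0 with A-to-G sites alone, C-to-T sites alone, limma on the empirical logit and against the median change, and was 0 to 0 when single libraries were left out. With the replicate number as a block it was 2 at E16.5, where Bcl11b was called (0.61, quasi-binomial adjusted p = 0.0491). The block moved no other count of the 8 by over 1.5 times, but over all genes it gave 14 calls in place of 112 for editing and 1732 in place of 2756 for levels with IgG over untreated, both in the libraries labelled fresh-frozen. Same-numbered libraries share only a number: their deviations correlated between -0.0377 and 0.0365, with 2 pairs per comparison. Over all genes tested, calls for editing with anti-G3BP1 in the libraries labelled fresh-frozen (112) were 301 with 5 reads per site, 70 with sites listed under 1 gene, 0 with C-to-T sites alone, limma on the empirical logit or against the median change, and 0 to 22 when single libraries were left out. At E16.5 (781) they were 497 with A-to-G sites alone, 18 with C-to-T sites alone, 0 with limma on the empirical logit, 8 in both directions against the median change, and 0 to 161 when single libraries were left out. Level calls with IgG over untreated (2756) were 485 to 1183 when single libraries were left out. The background shares beside the counts of the 8 genes move with these calls. In the other comparisons but that of the stages, where at most 8 genes were called, alternatives gave 0 to 533.

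Values of single genes changed sign in 30 alternatives, none of them for a called value. In editing these were Neurod2 in the libraries labelled fresh-frozen (1.33 with A-to-G sites alone; -0.90 to 0.82 over left-out libraries), Bcl11a at E12.5 (-0.020 without its most edited site), Neurod6 at E16.5 (1.75 with A-to-G sites alone, 0.080 with the replicate block, 0.13 without its most edited site; -0.72 to 0.58 over left-out libraries) and Neurod2 at E16.5 (-0.015 with A-to-G sites alone; -0.16 to 0.34). With IgG over untreated they were Fezf2 (-1.71 with C-to-T sites alone; -1.51 to 1.30) and Neurod2 (-0.48 with A-to-G sites alone; -0.54 to 1.18). Leaving out single libraries also gave -1.50 to 2.34 for Bcl11a in the fixed embryo, -0.35 to 2.46 for Fezf2 in the libraries labelled fresh-frozen and -3.08 to 2.53 for Emx1 at E16.5. In expression, measuring against the median change gave 0.062 for Fezf2 at E12.5 and -0.085 for Fezf2 with IgG over untreated in the fixed embryo. Leaving out single libraries with anti-G3BP1 over IgG gave Fezf2 in the fixed embryo (-0.046 to 0.055), Emx1 in the libraries labelled fresh-frozen (-0.22 to 0.48), Bcl11a (-0.048 to 0.31), Neurod2 (-0.15 to 1.19) and Fezf2 (-0.41 to 0.24) at E12.5 and Tbr1 at E16.5 (-0.0056 to 0.19). With IgG over untreated it gave Fezf2 in the fixed embryo (-0.015 to 0.13) and Bcl11b in the libraries labelled fresh-frozen (-0.31 to 0.10). The cause of these changes was not tested. Depth limits editing of Neurod6 and Fezf2 in the libraries labelled fresh-frozen, of Eomes and Emx1 at E16.5, and of Bcl11a at E12.5 and in the fixed embryo. At E12.5 no listed site of the other genes had 10 reads in every library, and in the fixed embryo none of their sites was analysed here.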
